A study of Mus musculus with 6 samples.

Results

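Genes that cells switch on when oxygen is short were examined in mouse dorsal root ganglia, which hold the cell bodies of sensory neurons, after injury to a distant organ. The 10 genes, Vegfa, Slc2a1, Ldha, Pgk1, Bnip3, Adm, Egln3, Ankrd37, Ndrg1 and P4ha1, were taken by name as known targets of hypoxia-inducible factor (HIF). The rule uses no threshold on a measured value, but the list was drawn up with earlier results of these data known. All 10 were found among the 57180 genes of the deposited table, and all 10 were among the 16346 that could be tested. The mice were wild type, and the sources used here give no sex, age or strain. All mice were anaesthetised with Zoletil at 55 mg/kg. In the 3 mice with renal ischemia-reperfusion (I/R) the left renal pedicle was clamped for 28 min and released, and the right kidney was taken out. The 3 sham mice had the surgery with no clamp, and the labels do not say separately whether their right kidney was taken out. Ganglia spanning thoracic level 8 to lumbar level 2 were taken 24 h later, and the side of the body is not given. The clamp was on the kidney's vessels, so the ganglia themselves were not the clamped tissue, and the comparison asks how hypoxia-inducible transcripts stood there. Each group had 3 mice and 3 libraries.

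In normal oxygen, prolyl hydroxylases of the Egln family mark HIF alpha subunits, and the von Hippel-Lindau protein then sends them for breakdown. When oxygen falls, the alpha subunits last longer, pair with Arnt and bind a short core sequence near their target genes. The targets raise glucose uptake and glycolysis, dilate and grow vessels, change mitochondrial turnover and modify collagen. Many of them also serve ordinary metabolism in neurons and glia, so their transcripts are present without any lack of oxygen.

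The letters of the promoters are shown for Slc2a1, P4ha1, Bnip3, Ldha and Hif3a, because the HIF core reads ACGTG or GCGTG. Each line gives the 250 bases before a transcription start, written 5′ to 3′ on the gene's own strand, from RefSeq on GRCm38.p6, a build other than the GRCm39 that the submitters' notes name. Capitals mark every match to ACGTG or GCGTG on either strand. On the opposite strand these read CACGT and CACGC. The Slc2a1 window is chr4:119108495-119108744 (plus strand), P4ha1 is chr10:59323046-59323295 (plus), Bnip3 is chr7:138909507-138909756 (minus), the first Ldha start is chr7:46845554-46845803 (plus) and Hif3a is chr7:17062428-17062677 (minus).
Slc2a1: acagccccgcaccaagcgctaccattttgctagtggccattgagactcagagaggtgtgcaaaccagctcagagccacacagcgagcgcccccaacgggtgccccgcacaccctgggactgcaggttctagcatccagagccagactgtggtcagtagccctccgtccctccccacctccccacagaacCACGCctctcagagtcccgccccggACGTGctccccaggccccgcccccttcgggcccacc
P4ha1: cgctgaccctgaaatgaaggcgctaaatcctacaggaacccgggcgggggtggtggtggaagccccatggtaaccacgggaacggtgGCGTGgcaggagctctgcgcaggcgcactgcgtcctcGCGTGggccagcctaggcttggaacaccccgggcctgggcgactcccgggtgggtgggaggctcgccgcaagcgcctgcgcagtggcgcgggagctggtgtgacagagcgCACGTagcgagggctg
Bnip3: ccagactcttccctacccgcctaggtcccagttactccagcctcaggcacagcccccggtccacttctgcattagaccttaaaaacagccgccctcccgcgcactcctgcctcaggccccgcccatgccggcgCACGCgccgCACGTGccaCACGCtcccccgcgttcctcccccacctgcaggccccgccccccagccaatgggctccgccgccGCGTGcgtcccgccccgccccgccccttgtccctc
Ldha: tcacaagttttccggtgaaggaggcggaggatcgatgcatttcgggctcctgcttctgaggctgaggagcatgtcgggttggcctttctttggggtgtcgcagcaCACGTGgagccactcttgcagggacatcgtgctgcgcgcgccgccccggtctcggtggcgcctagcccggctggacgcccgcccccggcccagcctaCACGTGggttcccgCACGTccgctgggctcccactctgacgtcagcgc
Hif3a: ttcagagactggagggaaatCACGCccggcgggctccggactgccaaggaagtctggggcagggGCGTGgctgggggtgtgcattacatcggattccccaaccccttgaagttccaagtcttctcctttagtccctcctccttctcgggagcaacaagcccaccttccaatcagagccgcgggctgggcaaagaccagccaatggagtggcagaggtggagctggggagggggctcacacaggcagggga

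Of the 10 genes, 9 matched the promoter table, with 11 start sites, and Ndrg1 did not match. Lox, a further hypoxia target described below, was looked up as well and did not match. Each of the 9 had the core in at least 1 window. For Vegfa this was only the second of 2 windows (chr17:46025164-46025413, minus strand), which lies downstream of the first (chr17:46032378-46032627). That first Vegfa window was the only 1 of the 11 without the core. Bnip3 had 5 matches, of which 2 are the same CACGTG read on both strands, and the first Ldha window also had 5, with 2 copies of CACGTG. Slc2a1 had 2 matches and P4ha1 had 3. The core was present in 38.6% of all 32851 windows of this length, and in 50.6% of the 16382 windows whose G and C content lay in the range of the members' windows, 50.8% to 72.4%. Matches describe the letters in these windows and do not show binding.

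As a group the 10 genes did not move in 1 direction. None of the 10 was called at an adjusted p under 0.05 in edgeR's quasi-likelihood test, against 1.15% of all genes tested. DESeq2 called 1 of them, Slc2a1, against 312 of all 16346 genes, and limma-voom called 0, against 177. At a raw p under 0.05 there were 2, Slc2a1 and P4ha1, against 10.5% of all genes. Of the 10, 5 lay above 0 and 5 below, and the median log2 fold change, I/R over sham, was 0.02, beside 0.00013 over all genes tested. In 4 of the 10 the groups did not overlap, 1 higher and 3 lower in I/R, against 9.24% of all genes higher, 7.82% lower and 17.1% in either direction. In whole ganglia, fewer cells of a type and less RNA per cell cannot be told apart.

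**Figure D1:**
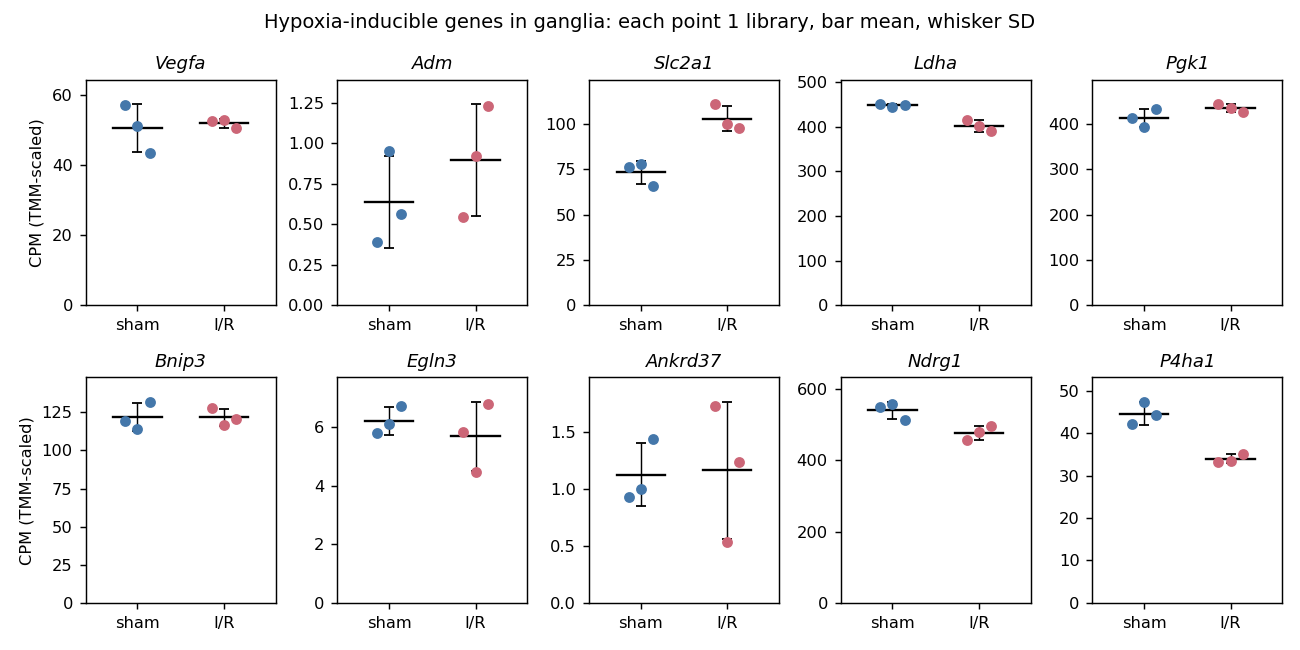
Normalised read counts (CPM, with library sizes scaled by TMM, y axis from 0) of the 10 genes in 3 sham and 3 I/R libraries; each point is 1 library, the bar is the mean and the whisker the SD. Slc2a1 is separated upward, Ldha, Ndrg1 and P4ha1 are separated downward, and the other 6 overlap between groups.

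The libraries were of similar depth, with 19092650 to 22010227 expected counts, and 1 count was worth 0.0456 to 0.0514 CPM, the count scaled to the library's size. All 10 sensory neuron markers were present, summing to 16958 to 18142 CPM in sham libraries against 15465 to 18693 CPM after I/R. The sham libraries 1 and 3 stood apart in skeletal muscle transcripts: 12 muscle genes summed to 597 and 302 CPM there, 18.2 CPM in sham 2, and 6.97 to 15.3 CPM in I/R. Further fits are therefore given beside the results they touch, one against sham 2 only and one that takes each library's muscle level as covariate. A fit against sham 2 rests on 1 sham library, which is assumed to vary like the I/R libraries. In the same libraries, all 9 axon injury genes, such as Atf3 and Sprr1a, lay above 0, with a median log2 fold change of 2.48. Of the 9, 8 were called higher by edgeR, against 0.722% of all genes.

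Levels of the 10 genes per kilobase (RPKM) spread over more than 2 orders of magnitude. Ldha, the lactate dehydrogenase subunit that favours making lactate, had the highest mean level over the 6 libraries, 234 RPKM, and Pgk1, the glycolytic phosphoglycerate kinase, followed at 233 RPKM. Those ranges overlapped, so their order is not resolved. Ndrg1, a stress-responsive gene abundant in Schwann cells, stood at 176 RPKM and Bnip3, a receptor for removal of mitochondria, at 69.4 RPKM. Slc2a1 and Vegfa stood next, at 27.0 and 26.0 RPKM, and again overlapped. P4ha1 stood at 9.71 RPKM. Egln3, Ankrd37 and Adm were low, at 2.24, 1.23 and 0.552 RPKM, with neighbouring ranges that overlapped. Ldha and Pgk1 stood at percentiles 98.7 and 98.6 of all tested genes by this measure, and Adm at percentile 12.2.

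**Figure D2:**
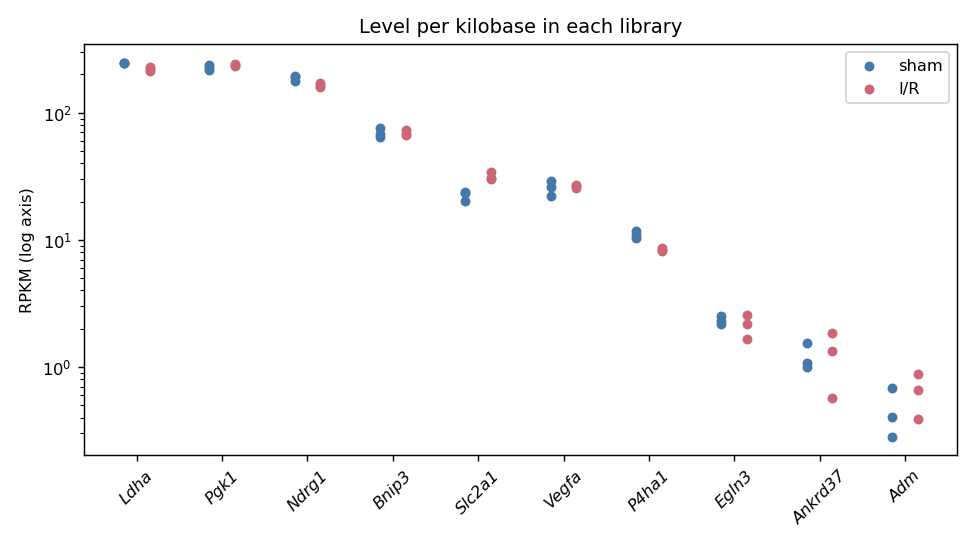
Level per kilobase (RPKM, log axis) of each gene in each of the 6 libraries, ordered by the mean over all libraries. Ldha and Pgk1 lie near 234 and 233 RPKM and Adm near 0.552 RPKM, and the spread between genes far exceeds that between groups.

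Among the secreted signals, Vegfa encodes the growth factor that drives vessel growth and permeability and can also act on neurons. Its level was 57.2, 51.4 and 43.4 CPM in the sham libraries (1 to 3) against 52.6, 52.9 and 50.6 CPM in the I/R libraries. The I/R values lay inside the sham range. The log2 fold change was 0.04 ± 0.11 (SE, n = 3 per group; adjusted p = 0.93 by edgeR's quasi-likelihood fit), with a 95% interval of the fold from 0.862 to 1.22. Its receptors were also not called: Flt1 had a log2 fold change of -0.10 and Kdr, the main signalling receptor, of 0.17 (adjusted p = 0.64), while Nrp2, a co-receptor, had -0.16 (adjusted p = 0.68). Of the family relatives, Pgf, placental growth factor, had -0.32 (adjusted p = 0.46), and Vegfd had 0.38 (adjusted p = 0.60). The groups did not overlap for Pgf, lower in I/R, nor for Vegfd and Kdr, higher in I/R.

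Adm encodes adrenomedullin, a vasodilator peptide that acts through Calcrl joined to Ramp2 or Ramp3. It had 8, 19 and 11 counts in the sham libraries and 11, 19 and 27 in the I/R libraries. The groups overlapped, and the log2 fold change of 0.50 ± 0.42 (adjusted p = 0.74 by edgeR's quasi-likelihood fit) had a 95% interval of the fold from 0.736 to 2.73. The value was -0.10 against sham 2 alone and -0.14 with the muscle covariate. Ramp2 averaged 8.97 ± 0.596 CPM in sham libraries against 13.0 ± 3.38 CPM after I/R (SD; log2 fold change 0.54, adjusted p = 0.31), with I/R 3 at 9.30 CPM inside the sham range. Of the 7 VEGF and adrenomedullin receptor genes none was called with any of edgeR, DESeq2 and limma-voom, and 1, Ramp2, had a raw edgeR p under 0.05.

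A relative of Adm behaved otherwise at the edge of detection. Adm2, which encodes intermedin, a peptide that uses the same receptors, had 0 counts in each sham library and 7, 9 and 7 counts in I/R 1 to 3. With sham set at 3 counts over the group, the limit that a count of 0 allows, Adm2 stood 7.30-fold higher in I/R. That figure takes the I/R counts without their own counting error, so it is not a lower limit of the fold. It was left out by the filter on low counts and was called only in the fit with no filter (adjusted p = 0.00571 by edgeR's quasi-likelihood fit).

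Slc2a1, the glucose transporter GLUT1 of barrier endothelium, perineurium and glia, came nearest to a call. It held 76.2, 77.7 and 66.0 CPM in the sham libraries (1 to 3), while the I/R libraries held 111, 100 and 97.8 CPM. Every I/R library was above every sham library. The log2 fold change was 0.49 ± 0.10 (SE, n = 3 per group), a fold of 1.41 with a 95% interval of 1.20 to 1.65, and the adjusted p over all genes was 0.059 in edgeR's test. The call depended on the tool: adjusted p was 0.00625 in DESeq2, 0.0443 with robust dispersion, 0.00949 with no filter on low counts and 0.0637 in limma-voom. Against sham 2 alone the value was 0.38 (adjusted p = 0.684) and with the muscle covariate 0.39 (adjusted p = 1), and over all 16 alternatives it ran from 0.38 to 0.54.

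Slc2a3, the neuronal glucose transporter GLUT3, averaged 96.0 ± 2.53 CPM in sham libraries against 103 ± 0.949 CPM after I/R, with a log2 difference of 0.09 (adjusted p = 0.75). The ratio of Slc2a1 to Slc2a3 reads was 0.783, 0.795 and 0.709 in the sham libraries and 1.07, 0.977 and 0.963 in the I/R libraries (1 to 3), so the groups did not overlap. Endothelial markers, 8 genes, summed to 165 to 175 CPM in sham libraries against 166 to 183 CPM after I/R, with Egfl7 and Cldn5 the most abundant. Of the 8, 0 passed in edgeR, DESeq2 or limma-voom, with 1 at a raw edgeR p under 0.05, against 10.5% of all genes. In 2 of these markers the groups did not overlap, both higher in I/R, against 9.24% of all genes higher. Macrophage markers, 8 genes led by Csf1r and Mrc1, summed to 41.3 to 43.4 CPM in sham libraries against 51.6 to 52.7 CPM after I/R. Of the 8, 1 was called higher by edgeR, against 0.722% of all genes, 1 was called by DESeq2 and 0 by limma-voom. Above 0 lay 7 and below 0 lay 1. In 4 the groups did not overlap, all higher in I/R, against 9.24% of all genes higher. Any part of macrophages in the Slc2a1 difference was not tested.

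The glycolytic members were measured with small errors and differed little. Ldha held 450, 444 and 449 CPM in the sham libraries (1 to 3), while the I/R libraries held 416, 400.4 and 389 CPM. All I/R values were below all sham values, but the log2 fold change was only -0.16 ± 0.08 (adjusted p = 0.55 by edgeR's quasi-likelihood fit), with a fold interval of 0.792 to 1.02. Pgk1 held 414, 394 and 434 CPM in the sham libraries (1 to 3), while the I/R libraries held 445, 436 and 427 CPM, and the groups overlapped. Its log2 fold change was 0.08 ± 0.08 (adjusted p = 0.81), in the opposite direction to Ldha. The processed copies of Ldha in the table held 2 counts against 51979 for the gene, and those of Pgk1 held 0.

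The makeup of lactate dehydrogenase was compared within libraries through its other subunit gene, Ldhb. Of the pair's reads, Ldha made up 60.1%, 60.7% and 59.7% in the sham libraries and 58.3%, 59.8% and 59.4% in the I/R libraries (1 to 3). Exact 95% binomial intervals of single libraries were about as wide as these differences, for example 58.9% to 60.5% in sham 3. The means were 60.2% ± 0.492 and 59.2% ± 0.758 (SD, n = 3), and the difference of -0.998 percentage points gave p = 0.2 in a two-sided exact permutation test, which cannot go below 0.1 here. Intervals cover counting error only, since the reads carry no molecular identifiers and may be copies of 1 molecule.

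Of 20 other glycolysis genes tested, 0 were called by edgeR, against 1.15% of all genes, and 0 by limma-voom. DESeq2 called 1, Pfkfb4 (adjusted p = 0.024), against 312 of all 16346 genes. Of the 20, 15 lay above 0 and 5 below. In 4 the groups did not overlap, all higher in I/R, against 9.24% of all genes higher. There were 3 at a raw edgeR p under 0.05, against 10.5% of all genes, and the median log2 fold change was 0.03. Those 3 were Pfkfb4 and Pfkfb3, enzymes that set fructose 2,6-bisphosphate and through it the pace of glycolysis, and Slc16a3, the lactate exporter MCT4. Pfkfb4 averaged 25.2 ± 2.32 CPM in sham libraries against 35.8 ± 3.43 CPM after I/R (log2 fold change 0.50, adjusted p = 0.086). Pfkfb3 stood at 112 ± 4.79 and 138 ± 12.7 CPM (0.31, adjusted p = 0.25), and Slc16a3 at 2.14 ± 0.291 and 3.38 ± 0.195 CPM (0.66, adjusted p = 0.20). In each of the 3 the groups did not overlap. Abundant enzymes such as Gapdh, Pkm and Eno1 had log2 fold changes of 0.03, 0.02 and 0.04.

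Bnip3 and Ankrd37 cover mitochondrial and less known targets. Bnip3 held 120, 114 and 132 CPM in the sham libraries (1 to 3), while the I/R libraries held 128, 117 and 120.3 CPM. The groups overlapped throughout, and the log2 fold change was -0.0021 ± 0.09 (adjusted p = 1 by edgeR's quasi-likelihood fit), with a fold interval of 0.863 to 1.16. Its relative Bnip3l, which also serves removal of mitochondria, had 0.02. Ankrd37, an ankyrin repeat gene with a strong hypoxia response in many cell lines, had 19, 20 and 28 counts in sham and 35, 11 and 27 in I/R. Its lowest and highest libraries were both I/R, and its log2 fold change of 0.05 ± 0.40 changed sign in 6 of 16 alternatives.

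Egln3 is a prolyl hydroxylase that both limits HIF and is itself a HIF target. It held 5.79, 6.10 and 6.74 CPM in the sham libraries (1 to 3), while the I/R libraries held 5.83, 4.45 and 6.80 CPM. I/R held both the lowest and the highest value, and the log2 fold change was -0.12 ± 0.18 (adjusted p = 0.85 by edgeR's quasi-likelihood fit). The other hydroxylases were likewise not called, with Egln1 at 0.03 and Egln2 at -0.14 on the log2 scale.

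Ndrg1 held 550, 558 and 512 CPM in the sham libraries (1 to 3), while the I/R libraries held 457, 480.3 and 495 CPM. The groups did not overlap, but the gap between them was small, and the log2 fold change was -0.18 ± 0.08 (adjusted p = 0.51 by edgeR's quasi-likelihood fit). Its relatives Ndrg2, Ndrg3 and Ndrg4 had 0.09, -0.06 and 0.05. Schwann cell markers, 6 genes led by Mbp and Pmp22, summed to 3748 to 4102 CPM in sham libraries against 3387 to 3889 CPM after I/R. Of the 6, 0 were called in edgeR, DESeq2 or limma-voom. At a raw edgeR p under 0.05 there were 2, against 10.5% of all genes. In 2 the groups did not overlap, both lower in I/R, against 7.82% of all genes lower. Any part of Schwann cells in the Ndrg1 difference was not tested.

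P4ha1, the catalytic subunit of the prolyl 4-hydroxylase that stabilises collagen, had the most negative value of the 10. It held 42.2, 47.4 and 44.2 CPM in the sham libraries (1 to 3), while the I/R libraries held 33.2, 33.5 and 35.2 CPM. All I/R libraries were below all sham libraries. The log2 fold change was -0.39 ± 0.09 (SE), a fold of 0.761 with a 95% interval of 0.658 to 0.880, and the adjusted p was 0.099 in edgeR's test and 0.0555 in DESeq2. It was not called under any of the 16 alternatives, in which the value ran from -0.51 to -0.35. The lowest values came from the fits that address muscle, -0.51 against sham 2 alone and -0.50 with the covariate.

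Genes around P4ha1 were uneven. P4hb, the partner subunit, differed by 0.0059 on the log2 scale, and the alternative catalytic subunits P4ha2 and P4ha3 had -0.15 and 0.21 (adjusted p = 0.73 and 0.64 by edgeR's quasi-likelihood fit). The ratio of P4ha1 to P4hb reads was 0.247 to 0.278 in sham and 0.199 to 0.204 in I/R. Of 10 fibroblast and meningeal markers, 9 were called lower by edgeR, against 0.428% of all genes. All 10 lay below 0, with a median log2 fold change of -1.12. Their summed level was 717 to 879 CPM in sham libraries against 361 to 434 CPM after I/R, with Dcn and Col1a1 the most abundant and none at 0. Their part in the P4ha1 value was not tested.

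**Figure D3:**
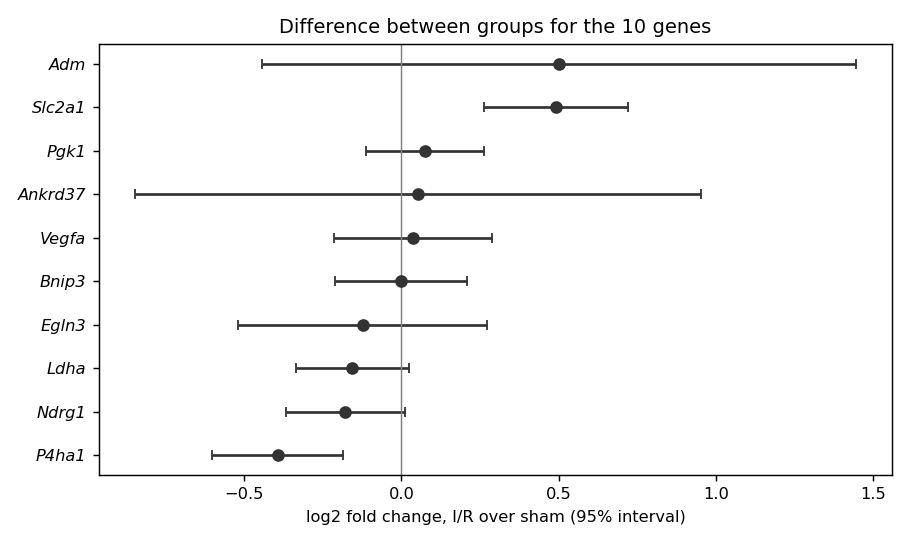
Log2 fold change, I/R over sham, of each of the 10 genes with its 95% interval from edgeR's quasi-likelihood fit. The intervals of Slc2a1 (fold 1.20 to 1.65) and P4ha1 (fold 0.658 to 0.880) exclude no change before adjustment for multiple tests, and those of the other 8 include it.

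For the 7 members with a sham mean of at least 10 CPM, a line drawn after the values were seen, the fold intervals together ran from 0.658 to 1.65. These intervals are for single genes and not adjusted for their number. Replicates of those 7 varied by 0.732% to 13.6% (coefficient of variation within a group). Of the other 3, Egln3 had an interval of 0.698 to 1.21, inside that range. Adm and Ankrd37, with the fewest counts, had wider intervals that reached beyond it, 0.736 to 2.73 for Adm and 0.556 to 1.93 for Ankrd37.

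The members did not follow each other from library to library. Over the 45 pairs and 6 libraries, Pearson's r of log2 CPM had a median of -0.14, with 6 pairs above 0.5 and 7 below -0.5. Ndrg1 and P4ha1 were the most alike (0.90), and Slc2a1 and P4ha1 the most opposed (-0.90). All pairs share the libraries and the group difference, so these values are descriptions. The 5 genes most like the mean profile of the 10, among 13372 candidates, were Gtf2h3, Cxcl10, Zscan26, Zdhhc6 and Zfp811, with r from 0.961 to 0.978 over 6 libraries. That profile was set mostly by I/R 2, whose mean standardised level was -0.45, while the other 5 libraries lay between 0.04 and 0.17.

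The machinery that controls HIF gave 1 clear change. Hif3a, an alpha subunit of which some isoforms restrain the other HIF proteins, rose from 0.737, 1.55 and 0.977 CPM in the sham libraries (1 to 3) to 4.65, 7.07 and 5.98 CPM in the I/R libraries. In counts these were 15, 31 and 19 against 94, 146 and 131. Each I/R library lay well above each sham library. The log2 fold change was 2.43 ± 0.28 (SE), a fold of 5.40, with an adjusted p of 0.0021 in edgeR's test. Which isoform the reads came from was not analysed here.

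Hif3a kept its call in edgeR, DESeq2 and limma-voom and without any single library, where the value ran from 2.21 to 2.77. It lost the call with the muscle covariate, where the value was 1.94 (adjusted p = 0.198 by edgeR). That fit called 25 genes in all, against 188 in the main fit. Muscle level itself separated the groups, at 18.2 CPM or more in sham and 15.3 CPM or less in I/R. Against sham 2 alone, a fit with 1 sham library, the Hif3a value was 1.90. The Hif3a level was lowest in sham 1, the library with most muscle RNA, and highest among sham libraries in sham 2. Sham 2 held 1.55 CPM, against 4.65 CPM in the lowest I/R library. Any part of muscle in the Hif3a difference was not tested.

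The other genes of the HIF pathway list were not called in edgeR, DESeq2 or limma-voom, and 1 of them, Cited2, had a raw p under 0.05. Hif1a, the alpha subunit found in most cells, averaged 66.6 ± 4.74 CPM in sham libraries against 77.1 ± 5.94 CPM after I/R (log2 fold change 0.21 ± 0.10, adjusted p = 0.51 by edgeR's quasi-likelihood fit), with no overlap, and Epas1, the alpha subunit prominent in endothelium, differed by 0.02. Cited2, a HIF-induced inhibitor of HIF's coactivator binding, stood at 8.0 ± 0.651 and 11.8 ± 1.49 CPM (0.56, adjusted p = 0.12). Hif1an, the asparagine hydroxylase that blocks HIF activity, stood at 107 ± 4.51 and 93.7 ± 3.98 CPM (-0.19, adjusted p = 0.48). Of the 14 genes, 1 was called higher and 0 lower, against 0.722% and 0.428% of all genes, and the list median was 0.03. The groups did not overlap in 4 that were higher in I/R and 2 that were lower, against 9.24% and 7.82% of all genes. Vhl (log2 fold change 0.11) was among those higher and Arnt (-0.14) among those lower. HIF alpha subunits are controlled mainly as proteins, which were not measured.

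**Figure D4:**
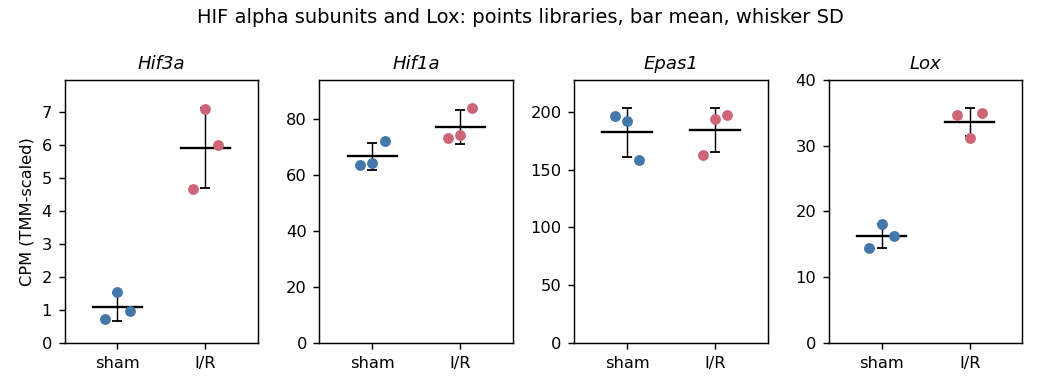
Normalised read counts (CPM, y axis from 0) of the HIF alpha subunit genes Hif3a, Hif1a and Epas1 and of the hypoxia target Lox; points are libraries, bars means and whiskers SD (n = 3 per group). Hif3a and Lox are separated between groups and were called, Hif1a is separated by a small gap and was not called, and Epas1 overlaps.

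Among 26 further hypoxia target genes, 23 could be tested, 1 was called higher and 0 lower by edgeR, 4.35% against 1.15% of all genes in either direction. Of the 23, 6 had a raw p under 0.05, against 10.5% of all genes, and the median log2 fold change was 0.02. The groups did not overlap in 6 of the 23, all higher in I/R. Over the 57 tested genes of this list and the HIF pathway and glycolysis lists, 14 were separated higher and 2 lower. The share over all genes was 9.24% higher and 7.82% lower. Lox, which cross-links collagen and elastin, rose from 14.4, 18.1 and 16.2 CPM in the sham libraries (1 to 3) to 34.6, 31.2 and 35.0 CPM in the I/R libraries, with no overlap (log2 fold change 1.05 ± 0.12, adjusted p = 0.0019 by edgeR's quasi-likelihood fit). Lox also answers to signals other than low oxygen.

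Lox lost its call with the muscle covariate (0.82, adjusted p = 0.272 by edgeR), a fit that called 25 genes in all against 188 in the main fit. Against sham 2 alone, a fit with 1 sham library, the value was 0.87. Lox kept the call in edgeR, DESeq2 and limma-voom and without any single library.

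Of the targets that were not called, Vldlr, the very low density lipoprotein receptor, averaged 33.8 ± 2.03 CPM in sham libraries against 50.6 ± 7.76 CPM after I/R (0.58, adjusted p = 0.067), and DESeq2 called it (adjusted p = 0.0052). Wsb1 had 0.40 and Mxi1, a Myc antagonist, 0.34 (adjusted p = 0.20 and 0.24 by edgeR). For Vldlr, Wsb1 and Mxi1 the groups did not overlap, each higher in I/R. The other genes with a raw p under 0.05 were Angptl4, a regulator of lipoprotein lipase, at 0.38 (adjusted p = 0.26), with no overlap, and Higd1a, a mitochondrial protein, at -0.43 (adjusted p = 0.47), the lowest value of the list, with groups that overlapped. Ddit4, Hilpda, Kdm3a and Fam162a, picked after their values were seen, were nearer to 0, with Ddit4 at -0.02, Hilpda at -0.18, Kdm3a at 0.15 and Fam162a at -0.05. Car9, Stc2 and Epo had too few counts to test, and Epo was at 0 in 5 of 6 libraries.

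**Figure D5:**
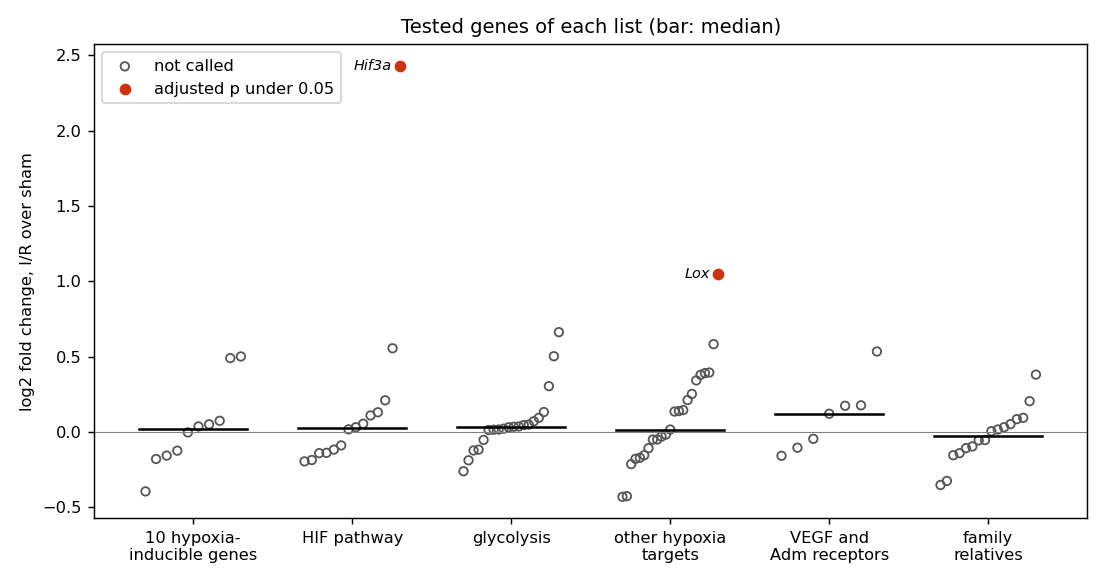
Log2 fold change, I/R over sham, of each tested gene in the 10 hypoxia-inducible genes and 5 related lists; open circles were not called, filled circles had an adjusted p under 0.05, and bars are medians. Only Hif3a (2.43) and Lox (1.05) are filled.

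Of the 17 family relatives of the 10 genes, 16 could be tested and 0 were called with any of edgeR, DESeq2 and limma-voom, with 1, Pgf, at a raw p under 0.05 and a median of -0.02. The authors' annotation offers a wider list, taken after the files had been seen. Genes that it marks with a response to hypoxia numbered 284, of which 202 could be tested, and 6 of the 10 members carried the mark. Of the 202, 7 were called higher and 2 lower, 4.46% against 1.15% of all genes, and the median log2 fold change was -0.0031. The called genes were Slc6a4, Adam8, Hif3a, Fosl2, Gm21451, Loxl2 and Bach1 (higher) and Alas2 and Pygm (lower), so Hif3a was the only HIF subunit among them. Gm21451 had 0 CPM in each sham library and Slc6a4 had 0.150 to 0.246 CPM. Both passed the filter on low counts only through the I/R libraries, and the share of 4.46% counts both. Pygm is a muscle gene and Alas2 a red cell gene. Of 11 tested muscle genes edgeR called 1 lower, against 0.428% of all genes lower. DESeq2 called 11, against 312 of all 16346 genes, and limma-voom 0, against 177. The high muscle levels were those of sham 1 and sham 3. The 6 erythroid genes, Alas2 among them, summed to 199.6 to 293 CPM in sham libraries against 66.7 to 105 CPM after I/R. Of the 6, 5 were called lower by edgeR, against 0.428% of all genes.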

How the data were processed

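Gene expression was read from 1 table with 57180 Ensembl genes and 6 libraries, 3 per group. Per the labels' protocols, RNA came from TRIzol extraction and a stranded Illumina mRNA kit. The values are expected counts as the authors deposited them, not scaled to library size, and 10.7% to 11.5% per library were not whole. Per the submitters' processing notes, fastp, HISAT2, StringTie and GRCm39 were used. Which program counted reads, with which strand setting and annotation, is not given in the sources used here.

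Values were rounded and tested with edgeR 4.0.16 (R 4.3.3): TMM, its filter on low counts (16346 genes kept), quasi-likelihood test, Benjamini-Hochberg adjustment over all genes, call at an adjusted p under 0.05. The test had been planned for whole counts and was not changed. Intervals are 95% intervals of single fold changes. RPKM divides CPM by the deposited gene length in kilobases. Correlations used log2 CPM with a prior count of 2. The code was tested on simulated counts.

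All members were named, with every called gene and the 3 of smallest p from each related list (HIF pathway, glycolysis, other hypoxia targets, receptors, relatives). The 5 most alike genes had a mean of at least 1 CPM and lay outside all lists. Adm2, P4hb, P4ha2, Ldhb, Epas1, Flt1 and the other genes named as neighbours, and the called genes with the authors' hypoxia mark, were chosen after their values were seen. Where Aldoa had 2 identifiers, the more abundant was used. A hypoxia target and a Schwann cell marker of the planned lists were left out of them and are not reported here; both stayed in the fit over all genes. The members and lists were chosen with earlier results of these data known. Each result was recomputed with DESeq2 1.42.0, with limma-voom (limma 3.58.1), with upper-quartile or RLE scaling, and with robust dispersion, other filters, a replicate block, a muscle covariate, sham 2 alone, and leaving out each library. Chi-square per degree of freedom between libraries of 1 group was 4.05 to 27.9, so none was taken for a repeat of another.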

Additional observations from a re-analysis of the deposited data

How the results depend on the processing

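Counts of calls moved more than the values. The number of called genes among the 10 was 0 in edgeR's main setting and 1 (Slc2a1) in DESeq2, with robust dispersion and with no filter on low counts. Over all genes 188 were called, 312 in DESeq2, 494 with no filter, 63 with the replicate block, 25 with the muscle covariate, 32 against sham 2 alone and 87 to 181 when 1 library was left out (93 without sham 1, 87 without I/R 2, 98 without I/R 3). DESeq2 and the fit with no filter each called 1 glycolysis gene, Pfkfb4, and the latter 1 relative, Adm2. Called genes of the HIF pathway list and of the other targets numbered 0 with the muscle covariate and 0 against sham 2 alone. Other targets called numbered 1 in the main setting and 2 (Lox and Vldlr) in DESeq2, with robust dispersion and with no filter. The members' median log2 fold change was -0.11 with the covariate. The cause of these shifts was not tested.

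Of the members, 5 changed sign in some alternative, and none of those 5 was called. Ankrd37 was -0.074 in limma-voom, -0.014 with the block, -0.079 with the covariate and -0.34 to 0.38 with 1 library left out. Bnip3 was 0.073 with the covariate, 0.071 against sham 2 alone, and -0.050 to 0.059 with 1 library left out. Adm, at 0.50 the highest of the 10 in the main setting, was -0.14 with the covariate and -0.10 against sham 2 alone. Vegfa was -0.0049 against sham 2 alone and -0.062 to 0.13 with 1 library left out, and Egln3 was -0.27 to 0.0064. Slc2a1, Ldha, Pgk1, Ndrg1 and P4ha1 kept their direction in all 16 alternatives, as did Hif3a and Lox. The Ldha share kept its direction, from -1.32 to -0.58 points with 1 library left out. Pairing by replicate number leaves its mean difference at -0.998 points by construction, so that setting is no check of direction. Replicate numbers did not pair the samples: deviations of same-numbered libraries correlated at -0.11, 0.14 and -0.12.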
